A study of Homo sapiens with 183 samples.

Results

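Knockout of RUVBL1 was profiled by RNA-seq in AsPC-1, an established human pancreatic cancer cell line, in 2 separate experiments that shared no library. The libraries were chosen by their labels, as the AsPC-1 libraries named sgRUVBL1 or sgRosa whose replicate label begins with 3 (experiment 3) or 2 (experiment 2). This gave 16 of the 183 samples in the series, from a table of 48 AsPC-1 libraries. Each experiment held 4 sgRUVBL1 and 4 sgRosa libraries. Levels of 19875 gene names were in TPM, a transcript's share of all transcripts in its library corrected for length, and genes averaging 1 TPM or more were tested, 12224 in experiment 3 and 11645 in experiment 2. Within each experiment sgRUVBL1 was compared with its own sgRosa libraries, and the change was then compared between the experiments.

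All groups were AsPC-1 cells that stably expressed Cas9 and received, by lentivirus, a vector carrying a single guide RNA (sgRNA) and puromycin resistance. RNA was taken on day 5 after infection. In the control group, sgRosa, the guides targeted the ROSA26 safe-harbor locus, so the controls carried Cas9 and vector as well. Experiment 3 further held sgRUVBL2 (4 libraries), sgKLF5 (4), sgCDK1 (2) and sgRpa3 (2), and experiment 2 held sgSERPINB5 (4), all in the same cells. The knockouts were mixed populations of edited cells and not clones, so some cells may have kept a working allele. Independent sgRNAs were used for RUVBL1, RUVBL2, KLF5 and the ROSA26 control, with replicate libraries for each guide. The labels do not say which library carried which guide, so guide could not be entered in the fits. Every library of a group was counted as a separate replicate. The standard errors and adjusted p values therefore do not allow for libraries that share a guide. The study calls its replicates biological, so the spread within a group can hold differences between guides as well as between replicates, and these cannot be told apart here. In such bulk RNA, fewer cells of a kind and less RNA per cell cannot be told apart.

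RUVBL1 and RUVBL2 are related AAA+ ATPases that join into one ring-shaped complex. The complex works with the R2TP co-chaperone in putting together large assemblies such as RNA polymerases, snoRNPs, spliceosomal snRNPs and the PIKK kinases, and it is a subunit of the INO80, SRCAP and TIP60 chromatin complexes. KLF5 is a zinc-finger transcription factor of epithelial cells, and the study asked how RUVBL1 and RUVBL2 bear on KLF5-dependent transcription in pancreatic cancer.

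TPM values sum to the same total in every library, so read depth is unknown, and the genes detected at 1 TPM or above are given in its place. They numbered 11868 to 11976 in the sgRosa and 12148 to 12598 in the sgRUVBL1 libraries of experiment 3, and 11423 to 11617 and 11702 to 11880 in experiment 2. No 2 libraries held identical values. The sgRUVBL1 libraries correlated with each other across genes at r = 0.985 to 0.994 in experiment 3 and at 0.995 to 0.996 in experiment 2. All 14 epithelial markers checked (KRT8, KRT18, EPCAM, CDH1 and others) reached 1 TPM. Of the 11 fibroblast markers 2 did, led by LUM, of the 12 immune markers 3 or 4 did, led by CD68, of the 9 acinar and islet markers 0 in sgRosa and 1 in sgRUVBL1 did, CTRB1, and none of the 6 endothelial markers did. The acinar and islet markers summed to 0.272 to 0.727 TPM in sgRosa and 1.598 to 4.86 TPM in sgRUVBL1 of experiment 3, and to 0 to 1.72 and 0.256 to 2.35 TPM in experiment 2.

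RUVBL1 transcript fell to about the same level in both experiments. RUVBL1 (chromosome 3, 128064778 to 128153914, minus strand, GRCh38) measured 86.7, 86.8, 84.04 and 79.5 TPM in the sgRosa libraries of experiment 3 and 29.9, 27.4, 34.7 and 33.8 TPM in the sgRUVBL1 libraries (log2 fold change -1.40 ± 0.06, adjusted p = 1.1e-10). In experiment 2 RUVBL1 measured 101, 94.7, 98.9 and 99.9 TPM in the controls and 30.8, 32.97, 32.2 and 33.6 TPM after knockout (-1.58 ± 0.05, adjusted p = 3.2e-11). Fold changes are given ± SE on the log2(TPM + 1) scale, which understates the change of low genes, and where a pair of them is given the first is from experiment 3 and the other from experiment 2. The groups did not overlap in either experiment, and the difference between the changes was 0.18 ± 0.09 (adjusted p = 0.17). The guides cut the gene and not its RNA, so the transcript level is an incomplete reading of how much protein was lost.

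RUVBL2 (chromosome 19, 48993562 to 49015970, plus strand), the partner ATPase, was higher where RUVBL1 was targeted. It stood at 99.5, 103, 96.7 and 92.03 TPM in sgRosa and 138, 129, 124.6 and 119 TPM in sgRUVBL1 of experiment 3 (0.38 ± 0.12, adjusted p = 0.015), a call that was lost after median-of-ratios scaling of the libraries (adjusted p = 0.18). In experiment 2 RUVBL2 measured 132, 123, 114 and 136 TPM in sgRosa and 153, 148, 150.3 and 157 TPM in sgRUVBL1 (0.27 ± 0.07, adjusted p = 0.0053). KLF5 (chromosome 13, 73054976 to 73077541, plus strand) fell in both experiments. It went from 159.6, 152, 162 and 148 to 104, 93.9, 123 and 112 TPM in experiment 3 (-0.53 ± 0.09, adjusted p = 8.5e-05) and from 110.4, 102, 132 and 123 to 67.3, 76.1, 68.8 and 74.8 TPM in experiment 2 (-0.69 ± 0.08, adjusted p = 2.8e-06). No sgRUVBL1 library reached any sgRosa library of its experiment for KLF5. SERPINB5 (chromosome 18, 63476958 to 63505085, plus strand), which encodes the serpin maspin, fell in experiment 2 from 168, 172, 199.9 and 189.5 to 87.8, 97.8, 92.3 and 97.3 TPM (-0.95 ± 0.08, adjusted p = 1.3e-07). In experiment 3 SERPINB5 measured 121, 113, 109 and 92.5 TPM in sgRosa and 75.9, 80.6, 97.5 and 90.9 TPM in sgRUVBL1, with overlap, and the log2 fold change was -0.33 ± 0.18 (adjusted p = 0.13). That call was made after the scaling (adjusted p = 0.026) and with only these 8 libraries in the fit (0.011). The difference between the experiments was 0.62 ± 0.12 for SERPINB5 (adjusted p = 0.0023), and its sgRosa level was itself higher in experiment 2.

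**Figure D1:**
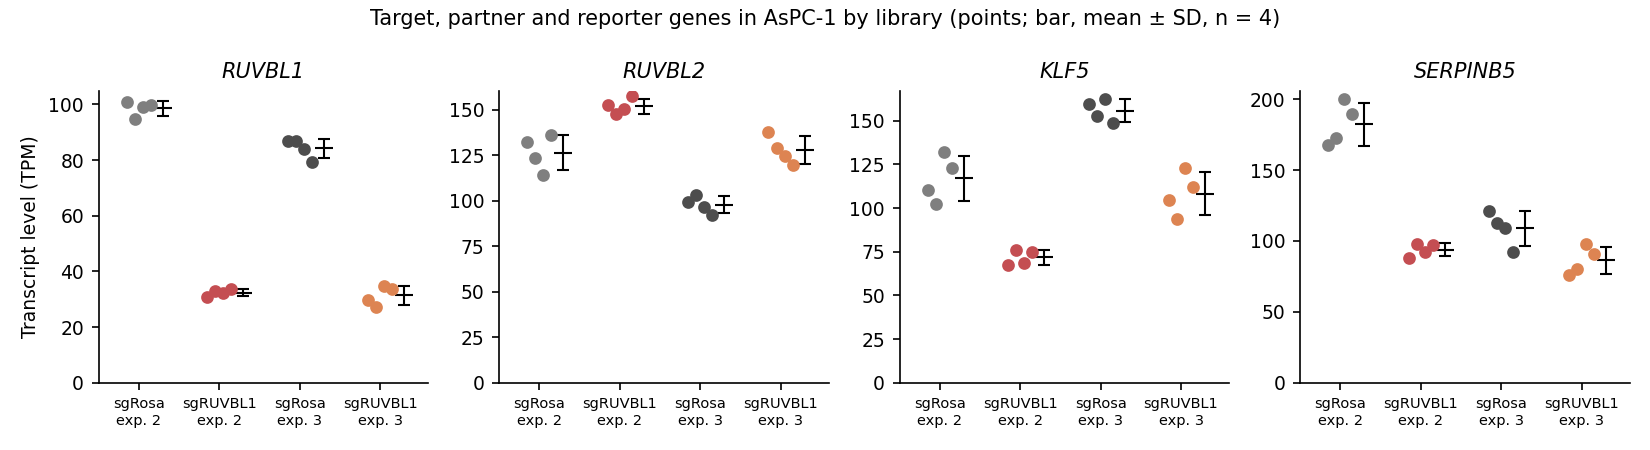
Transcript level in TPM (y axis) of RUVBL1, RUVBL2, KLF5 and SERPINB5 in the sgRosa and sgRUVBL1 libraries of experiments 2 and 3, with points for libraries and bars for the mean ± SD of 4. RUVBL1 dropped from 84.2 ± 3.43 to 31.5 ± 3.43 TPM in experiment 3 and from 98.6 ± 2.69 to 32.4 ± 1.24 TPM in experiment 2, and KLF5 groups did not overlap in either.

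RUVBL1 knockout was followed by called changes over much of the transcriptome, most of them under 1 on the log2 scale. In experiment 3, 6339 genes passed an adjusted p of 0.05 (51.9% of those tested), of which 4477 rose and 1862 fell, and 350 rose and 112 fell by at least 1 on the log2 scale. Experiment 2 called 6498 genes (55.8%), 3489 up and 3009 down, with 316 and 117 past that size. The balance of rises and falls depended on how libraries were scaled. As deposited, the median change of all genes was 0.16 in experiment 3 and 0.02 in experiment 2, and dividing each library by its median ratio to the average library moved them to -0.01 and -0.02. The calls then became 2861 up and 3240 down in experiment 3 and 3309 up and 3651 down in experiment 2. List medians are therefore given relative to the all-gene median as well, with the member counts after this scaling. The member counts of every list below are to be read beside the 51.9% and 55.8% of all genes called as deposited.

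Most changes were seen again in the other experiment. Of the 6107 genes called in experiment 3 and tested in experiment 2, 86.1% had the same sign there and 64.2% were also called in that direction. Of the 6471 called in experiment 2 and tested in experiment 3, 86.2% had the same sign and 60.6% were called. Across the 11578 genes tested in both, 3920 were called in the same direction in both (33.9%), 2543 up and 1377 down, while 171 were called in opposite directions. Log2 fold changes of the 2 experiments correlated across genes at r = 0.73 (Spearman rho 0.71), where the points are genes of the same libraries and not replicates. By at least 1 on the log2 scale in each experiment, 166 genes rose and 37 fell.

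**Figure D2:**
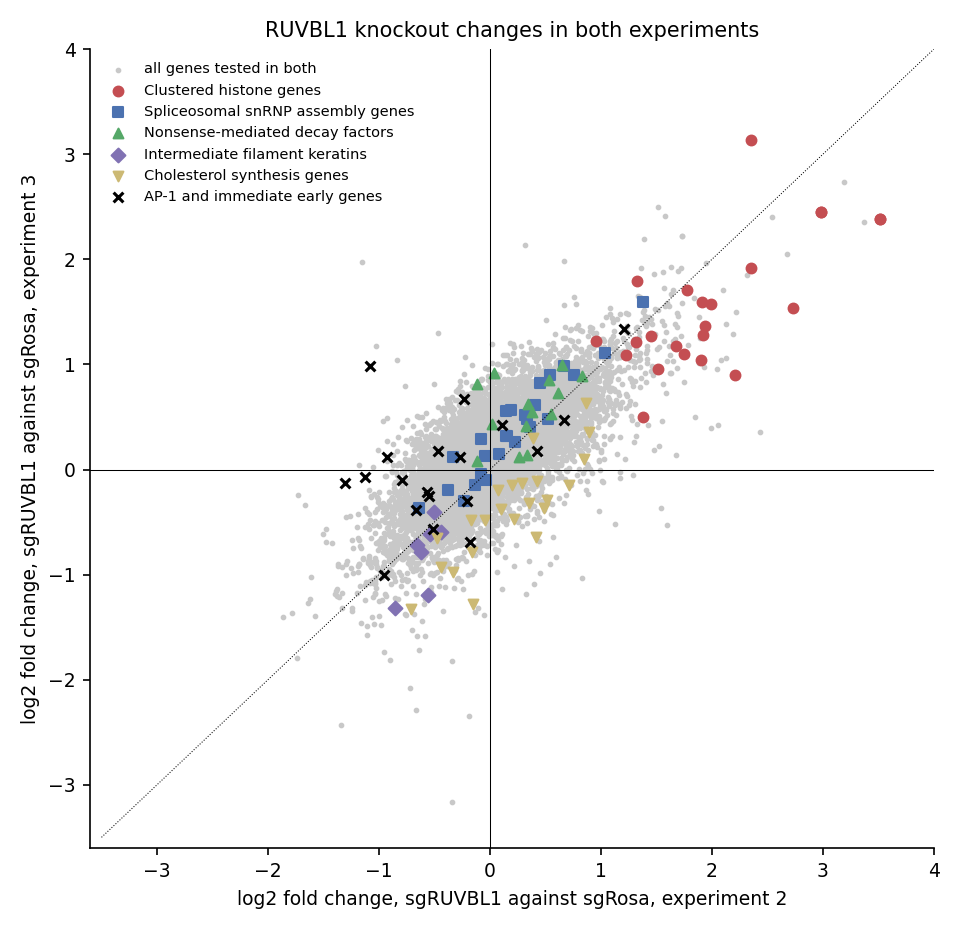
Log2 fold change of sgRUVBL1 against sgRosa for each gene tested in both experiments, experiment 2 on the x axis and experiment 3 on the y axis, with 6 gene lists marked and a dotted line of equal change. Clustered histone genes sit at the upper right, keratins at the lower left, cholesterol synthesis genes mostly below the dotted line and most AP-1 and immediate early genes above it.

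RUVBL1, RUVBL2 and the genes of their R2TP partners came first. Experiment 3 called 13 of 18 tested members higher and 2 lower (median log2 fold change 0.33, or 0.18 relative to all genes), which became 6 and 3 after scaling. Experiment 2 called 8 of 18 tested members higher and 4 lower (median log2 fold change 0.03, or 0.01 relative to all genes), which became 8 and 4 after scaling. These shares stand beside 51.9% and 55.8% of all genes called, and 8 rose and 1 fell in both experiments. PDRG1, a prefoldin-like subunit found with RUVBL1 and RUVBL2, rose from 26.9, 27.6, 27.3 and 24.3 TPM in sgRosa to 89.01, 83.8, 71.97 and 74.8 TPM in sgRUVBL1 of experiment 3 (1.55 ± 0.09, adjusted p = 8.0e-10). In experiment 2 PDRG1 rose from 27.3, 26.5, 28.6 and 24.6 to 78.3, 76.96, 87.7 and 84.8 TPM (1.58 ± 0.07, adjusted p = 3.1e-10), a fold of 3.06 against 3.01 in experiment 3. ZNHIT3 and ZNHIT2, zinc-finger HIT proteins that act as assembly factors for snoRNP and U5 snRNP, rose as well. ZNHIT3 went from 63.9, 63.5, 60.5 and 61.9 to 113, 126, 109 and 116 TPM in experiment 3 (0.88 ± 0.07, adjusted p = 1.7e-08). In experiment 2 ZNHIT3 went from 68.6, 67.8, 74.8 and 60.9 to 133, 126, 126 and 118 TPM (0.88 ± 0.07, adjusted p = 1.1e-07), and ZNHIT2 changed by 0.92 ± 0.11 and 0.56 ± 0.09. For these 3 genes every sgRUVBL1 library lay above every sgRosa library of its experiment. As members named for the largest changes called in both experiments, they were likely to be separated by that choice. RPAP3, the R2TP scaffold subunit, rose in experiment 3, from 26.2, 22.3, 30.5 and 23.3 to 37.2, 44.5, 38.8 and 35.9 TPM (0.60 ± 0.11, adjusted p = 2.8e-04). In experiment 2 RPAP3 measured 36.5, 34.5, 42.3 and 34.3 TPM in sgRosa and 35.5, 38.7, 36.4 and 38.3 TPM in sgRUVBL1 (0.02 ± 0.08, adjusted p = 0.87), and the changes differed (adjusted p = 0.0051). PIH1D1, the subunit that binds phosphorylated clients, fell in experiment 2 (-0.29 ± 0.06, adjusted p = 8.7e-04) and measured -0.12 ± 0.07 in experiment 3 (adjusted p = 0.18, or 0.0051 after scaling).

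Genes of spliceosomal snRNP assembly rose more often than they fell. Experiment 3 called 17 of 26 tested members higher and 2 lower (median log2 fold change 0.36, or 0.21 relative to all genes), which became 12 and 5 after scaling. Experiment 2 called 12 of 26 tested members higher and 4 lower (median log2 fold change 0.17, or 0.15 relative to all genes), which became 12 and 4 after scaling. Of these, 12 rose and 2 fell in both experiments. PRPF3, a U4/U6 snRNP protein, rose from 38.01, 38.1, 38.5 and 34.3 to 123, 125.2, 107 and 104 TPM in experiment 3 (1.59 ± 0.09, adjusted p = 4.4e-10). In experiment 2 PRPF3 rose from 40.8, 36.3, 39.9 and 38.3 to 103, 99.5, 109 and 98.1 TPM (1.38 ± 0.07, adjusted p = 4.4e-10). PRPF6, which bridges U5 with U4/U6 in the tri-snRNP, rose from 157, 165, 143 and 151 to 358, 345, 319 and 311 TPM in experiment 3 (1.11 ± 0.06, adjusted p = 3.7e-10) and from 152, 139, 143 and 141 to 285, 287, 305 and 307 TPM in experiment 2 (1.04 ± 0.05, adjusted p = 7.2e-10). SART1, another tri-snRNP protein, changed by 0.90 ± 0.09 and 0.76 ± 0.06, and PRPF4, the U4/U6 partner of PRPF3, by 0.98 ± 0.08 and 0.67 ± 0.08. None of these 4 genes had overlapping groups in either experiment. They were named for the largest changes on the list called in both experiments, which largely sets this separation. The large U5 helicase SNRNP200 rose in both (0.90 ± 0.10 and 0.54 ± 0.14). PRPF8, the core of the spliceosome's active site, rose in experiment 3 with overlapping groups (0.56 ± 0.18, adjusted p = 0.013) and measured 0.14 ± 0.16 in experiment 2 (adjusted p = 0.46). PRPF31, a U4 snRNP protein, went the other way. It fell from 66.3, 68.5, 68.9 and 69.05 to 52.1, 51.8, 53.7 and 51.9 TPM in experiment 2 (-0.37 ± 0.05, adjusted p = 1.4e-05) and from 57.3, 56.6, 54.3 and 54.9 to 47.7, 48.8, 49.3 and 48.1 TPM in experiment 3 (-0.20 ± 0.07, adjusted p = 0.022). The call of PRPF31 in experiment 3 was lost without sgRUVBL1 replicate 1 (adjusted p = 0.053) or sgRosa replicate 1 (0.057).

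Factors of nonsense-mediated decay, the pathway that removes transcripts with early stop codons, rose, with no member called lower as deposited. Experiment 3 called 11 of 14 tested members higher and 0 lower (median log2 fold change 0.58, or 0.43 relative to all genes), which became 11 and 0 after scaling. Experiment 2 called 9 of 14 tested members higher and 0 lower (median log2 fold change 0.34, or 0.32 relative to all genes), which became 9 and 1 after scaling. In both experiments 8 members rose. SMG5, which recruits decay enzymes, rose from 67.8, 72.4, 68.5 and 66.3 to 149, 143, 120.3 and 104 TPM in experiment 3 (0.89 ± 0.11, adjusted p = 4.1e-06) and from 58.2, 55.4, 56.3 and 58.9 to 96.3, 103, 103 and 108 TPM in experiment 2 (0.83 ± 0.09, adjusted p = 2.4e-06). UPF3B and MAGOH, which link decay to the exon junction complex, rose as well. UPF3B changed by 0.998 ± 0.09 and 0.65 ± 0.08, MAGOH by 0.73 ± 0.08 and 0.62 ± 0.08, and the core helicase UPF1 by 0.53 ± 0.12 and 0.55 ± 0.11. UPF2 and the kinase SMG1 were called in experiment 3 only. There UPF2 rose from 29.3, 25.4, 28.2 and 25.5 to 57.6, 62.3, 46.9 and 43.9 TPM (0.92 ± 0.10, adjusted p = 8.4e-07) and SMG1 from 52.03, 50.3, 56.2 and 41.3 to 100.2, 108, 92.003 and 60.2 TPM (0.81 ± 0.17, adjusted p = 5.0e-04). In experiment 2 UPF2 stood at 27.9, 26.2, 32.7 and 28.2 TPM in sgRosa and 27.2, 31.5, 28.7 and 30.8 TPM in sgRUVBL1, and SMG1 at 38.3, 29.7, 57.4 and 45.3 and 32.1, 41.3, 39.1 and 41.4 TPM. The changes of both differed between the experiments (adjusted p = 5.0e-04 for UPF2 and 0.013 for SMG1).

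**Figure D3:**
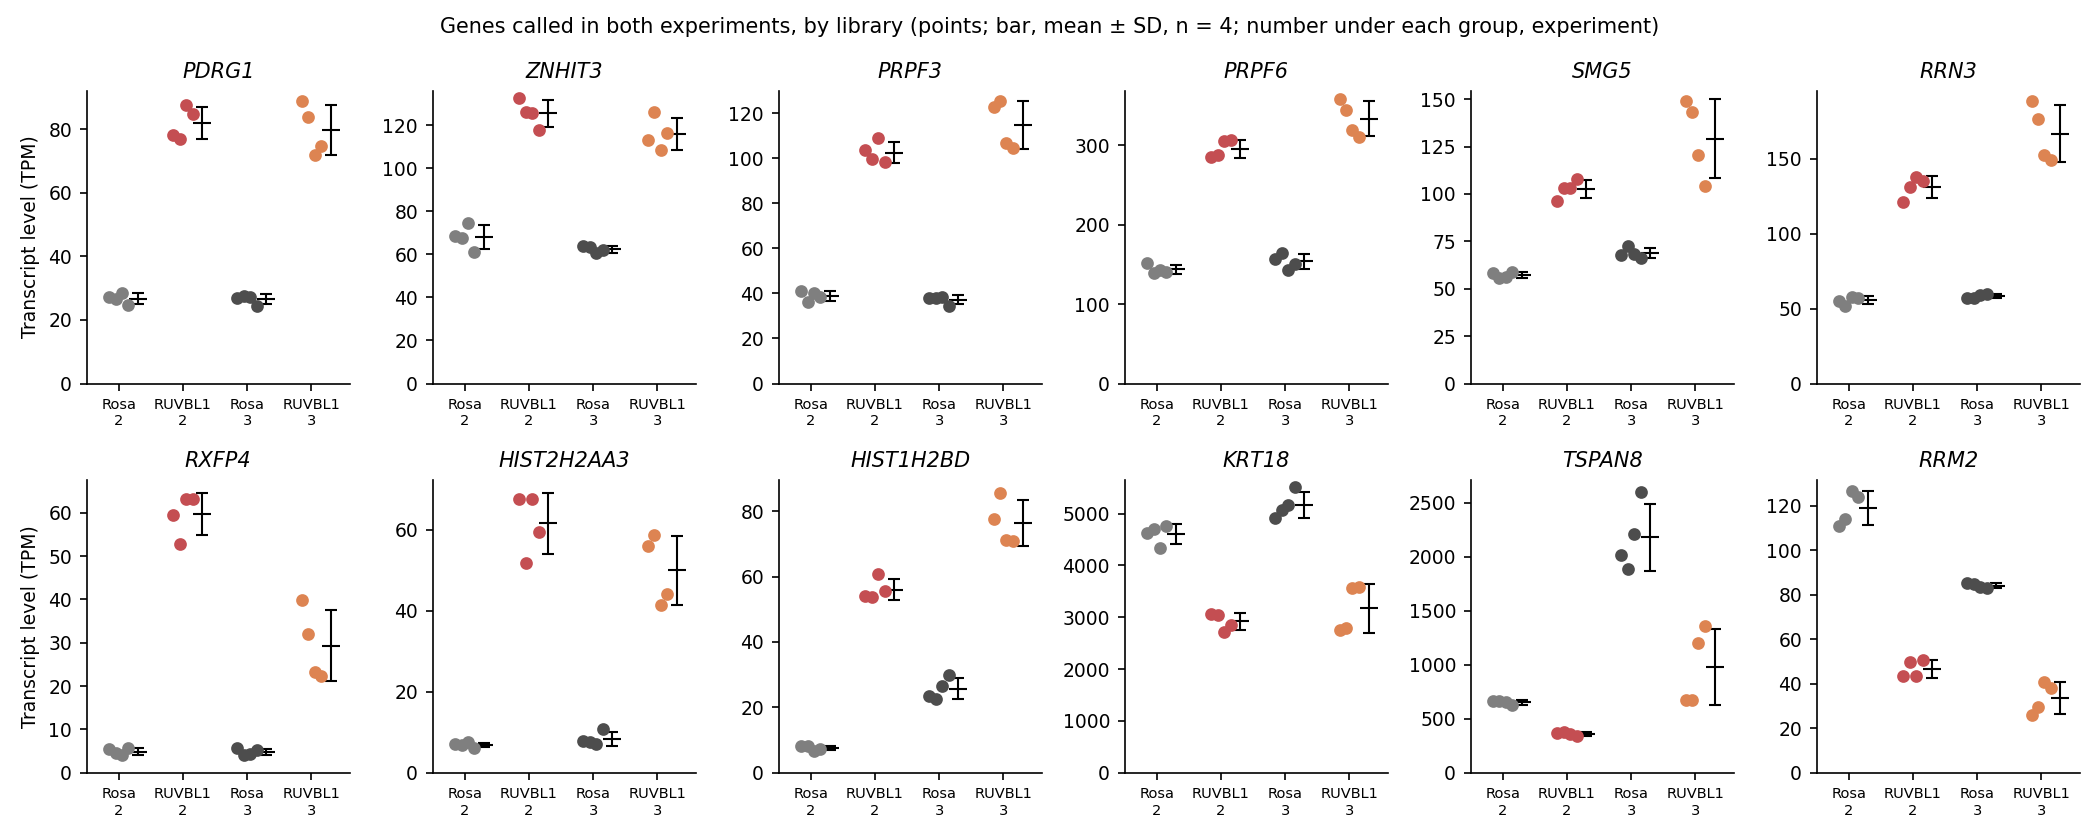
Transcript level in TPM (y axis, from 0) of 12 genes called in both experiments, by library, with bars for the mean ± SD of 4 libraries and the experiment number under each group. The sgRUVBL1 libraries lie above sgRosa for PDRG1, ZNHIT3, PRPF3, PRPF6, SMG5, RRN3, RXFP4, HIST2H2AA3 and HIST1H2BD and below it for KRT18, TSPAN8 and RRM2, with no overlap within an experiment. The genes were taken from those named for large called changes, so this separation is largely set by the choice.

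Subunits and initiation factors of RNA polymerases I, II and III rose more often than they fell. Experiment 3 called 19 of 32 tested members higher and 3 lower (median log2 fold change 0.35, or 0.19 relative to all genes), which became 15 and 6 after scaling. Experiment 2 called 13 of 32 tested members higher and 7 lower (median log2 fold change 0.15, or 0.13 relative to all genes), which became 13 and 6 after scaling. Of these, 12 rose and 3 fell in both experiments. RRN3, the initiation factor of RNA polymerase I, rose from 57.3, 57.1, 58.9 and 59.7 to 189, 176, 152 and 149 TPM in experiment 3 (1.49 ± 0.07, adjusted p = 1.7e-10) and from 55.1, 51.8, 57.8 and 57.2 to 121, 131, 138 and 135 TPM in experiment 2 (1.23 ± 0.06, adjusted p = 4.2e-10). RRN3 has near-identical pseudogene copies, so its reads could be split among them, and its value is uncertain to that extent. The small subunits POLR2L and POLR2K, shared by all nuclear RNA polymerases, changed by 0.65 ± 0.10 and 0.75 ± 0.09 in experiment 3 and by 0.81 ± 0.07 and 0.63 ± 0.06 in experiment 2. POLR2A, the catalytic subunit of RNA polymerase II, measured 63.3, 81.9, 58.5 and 48.03 TPM in sgRosa and 171, 149, 128 and 71.6 TPM in sgRUVBL1 of experiment 3 (0.99 ± 0.42, adjusted p = 0.059). Replicate 4 of sgRUVBL1 lay among the controls there, of which sgRosa replicate 4 was the lowest. Without sgRUVBL1 replicate 4 the adjusted p of POLR2A was 0.024. In experiment 2 POLR2A rose from 54.4, 51.6, 61.7 and 60.7 to 73.2, 88.04, 95.1 and 94.7 TPM (0.61 ± 0.19, adjusted p = 0.014). POLR3G, a subunit of RNA polymerase III, fell in both (-0.38 ± 0.12 and -1.02 ± 0.12), with overlapping groups in experiment 3 and more in experiment 2 (adjusted p = 0.016).

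Of the 9 core snoRNP genes 3 rose and 1 fell in experiment 3, and 3 rose and 2 fell in experiment 2, or 1 and 2 and 3 and 1 after scaling. Over all genes 51.9% and 55.8% were called, so these counts lay near the background. The list medians relative to all genes were -0.04 and -0.02. NOP58, of box C/D snoRNPs, rose in both (0.72 ± 0.06 and 0.30 ± 0.06). NOP10, of H/ACA snoRNPs, changed by 0.21 ± 0.07 and 0.46 ± 0.06, SNU13 by 0.21 ± 0.07 and 0.38 ± 0.05, and the methyltransferase FBL by -0.29 ± 0.07 and -0.18 ± 0.06. After scaling the experiment 3 calls of NOP10 and SNU13 were lost (adjusted p = 0.84 and 0.83), as was the experiment 2 call of FBL (0.066).

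The PIKK kinases and their TTT chaperones are clients and partners of R2TP as proteins, and their transcripts gave different readings in the 2 experiments. In experiment 3 ATM, ATR and SMG1 rose and none of the 9 genes fell, or 1 up and 1 down after scaling, with a median of 0.20 (0.05 relative to all genes). Experiment 2 had 1 rise, in TTI2, and 4 falls, or 0 up and 5 down after scaling, with a median of -0.41 (-0.43 relative to all genes). ATM, the kinase that answers double-strand breaks, measured 22.9, 20.7, 23.3 and 15.8 TPM in sgRosa and 29.5, 32.98, 26.7 and 21.95 TPM in sgRUVBL1 of experiment 3, with overlap (0.41 ± 0.15, adjusted p = 0.027). In experiment 2 ATM measured 18.5, 12.2, 21.6 and 14.5 and 9.17, 9.78, 8.53 and 11.6 TPM in the same order (-0.69 ± 0.16, adjusted p = 0.0018). ATR, its counterpart for replication stress, changed by 0.33 ± 0.11 (adjusted p = 0.02) and -0.41 ± 0.12 (adjusted p = 0.0096). The experiment 3 calls of ATM and ATR were lost after scaling (adjusted p = 0.12 and 0.21) and without any 1 of 3 or 4 single libraries. PRKDC, the DNA-dependent kinase, fell in experiment 2 from 76.9, 65.4, 97.2 and 83.9 to 41.1, 52.8, 47.3 and 50.7 TPM (-0.73 ± 0.15, adjusted p = 8.3e-04). In experiment 3 PRKDC stood at 85.4, 89.98, 88.05 and 74.04 TPM in sgRosa and 90.7, 97.6, 95.4 and 70.1 TPM in sgRUVBL1 (0.06 ± 0.10, adjusted p = 0.64). MTOR, the kinase of growth control, fell in experiment 2 (-0.51 ± 0.17, adjusted p = 0.02), a call lost without sgRUVBL1 replicate 1 (0.068), and measured -0.13 ± 0.13 in experiment 3. TELO2, a TTT subunit, was called in neither (0.15 ± 0.13 and 0.09 ± 0.08). The difference between the experiments was itself called, each time positive, for ATM, ATR, PRKDC, SMG1 and TRRAP, which is 5 of the 9 genes against 23.8% of all genes with a difference called in either direction, with the same number after scaling. All 5 had transcripts in the longest of 4 equal bins of transcript length, which held 6 of the 9 genes. Over all genes in that bin the difference was called positive for 31.6% and negative for 1.16%, and the part of length in the PIKK difference was not tested.

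Subunits of the INO80, SRCAP and TIP60 complexes moved both ways. Experiment 3 called 14 of 31 tested members higher and 4 lower (median log2 fold change 0.21, or 0.05 relative to all genes), which became 9 and 8 after scaling. Experiment 2 called 8 of 31 tested members higher and 8 lower (median log2 fold change 0.06, or 0.04 relative to all genes), which became 5 and 10 after scaling. In both experiments 6 rose and 4 fell, and the falls included members of the TIP60 histone acetyltransferase complex. KAT5, its catalytic subunit, fell from 51.5, 49.4, 47.7 and 47.6 to 24.5, 24.1, 30.8 and 38.3 TPM in experiment 3 (-0.74 ± 0.10, adjusted p = 1.1e-05) and from 48.4, 46.5, 47.3 and 43.1 to 28.3, 30.3, 30.9 and 28.99 TPM in experiment 2 (-0.63 ± 0.07, adjusted p = 1.8e-06). ING3, a reader of methylated histone H3, changed by -0.78 ± 0.19 and -0.91 ± 0.12, and YEATS4, a reader of acetylated histones, by -0.54 ± 0.14 and -0.86 ± 0.10. ACTR6, an actin-related subunit of SRCAP, rose (0.59 ± 0.09 and 0.33 ± 0.09). In none of these 4 genes did the groups overlap in either experiment, which is largely set by naming the members with the largest changes called in both.

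Clustered histone genes had the highest median change of the lists described, in both experiments. Of the 54 genes listed 26 were in the table and 23 were tested in each experiment. In experiment 3, 18 rose and none fell (17 after scaling), with a median of 1.36 (1.21 relative to all genes), and in experiment 2 all 23 rose, with a median of 1.91 (1.89 relative to all genes). The 18 called in experiment 3 were also called in experiment 2. The libraries were poly-A selected and most histone mRNA of cycling cells lacks a poly-A tail, so these values cover the polyadenylated forms, and closely alike copies can share reads. HIST2H2AA3 and HIST2H2AA4, an H2A pair with the same value in every library, rose from 7.89, 7.63, 7.07 and 10.7 to 55.9, 58.6, 41.4 and 44.04 TPM in experiment 3 (2.45 ± 0.13, adjusted p = 3.7e-10). In experiment 2 HIST2H2AA3 rose from 7.03, 6.82, 7.54 and 6.15 to 67.6, 51.7, 67.6 and 59.5 TPM (2.98 ± 0.14, adjusted p = 4.2e-10). HIST2H4A and HIST2H4B, an H4 pair that was likewise identical, rose from 7.81, 8.70, 8.80 and 7.30 to 55.4, 49.1, 39.3 and 44.5 TPM in experiment 3 (2.38 ± 0.15, adjusted p = 2.0e-09) and from 5.85, 1.57, 6.32 and 1.37 to 43.9, 40.1, 48.8 and 56.1 TPM in experiment 2 (3.52 ± 0.31, adjusted p = 2.2e-07). These pairs rose less in experiment 3 (adjusted p = 0.037 and 0.04 for the difference). HIST1H2BN, an H2B gene, rose from 0.385, 0.587, 0 and 1.93 to 12.7, 22.6, 12.7 and 7.61 TPM in experiment 3 (3.13 ± 0.32, adjusted p = 5.5e-07) and from 0, 1.26, 0.845 and 0.671 to 8.33, 9.28, 5.91 and 6.08 TPM in experiment 2 (2.35 ± 0.23, adjusted p = 5.9e-07). HIST1H2BD, another H2B gene, started higher in experiment 3, at 23.6, 22.6, 26.7 and 29.9 TPM in sgRosa, than in experiment 2, at 8.03, 8.24, 6.64 and 7.40 TPM. After knockout HIST1H2BD reached 77.7, 85.6, 71.1 and 70.7 TPM in experiment 3 and 54.1, 53.7, 60.8 and 55.6 TPM in experiment 2 (1.54 ± 0.15 and 2.73 ± 0.10, adjusted p = 1.1e-05 for the difference). For all of these genes every sgRUVBL1 library lay above every sgRosa library of its experiment. They were named among the largest rises, which required such separation in the experiment of naming, so it is not further support. HIST3H2A changed by 1.91 ± 0.14 and 2.35 ± 0.12, HIST1H2AE by 2.06 ± 0.34 and 2.68 ± 0.20, and HIST3H2BB by 2.50 ± 0.42 and 1.51 ± 0.21. HIST1H1C, which encodes a linker histone, rose in both (1.09 ± 0.15 and 1.23 ± 0.10).

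Ribosome biogenesis factors were read differently in the 2 experiments. Experiment 3 called 16 of 35 tested members higher and 4 lower (median log2 fold change 0.18, or 0.03 relative to all genes), which became 10 and 7 after scaling. Experiment 2 called 6 of 35 tested members higher and 15 lower (median log2 fold change -0.10, or -0.12 relative to all genes), which became 3 and 15 after scaling. A difference between the experiments was called for 23 of the 35, each time positive, against 23.8% of all genes with a difference called in either direction, and for 13 after scaling. UTP6, a small-subunit processome protein, rose in experiment 3 from 46.5, 47.4, 47.8 and 51.3 to 78.9, 83.3, 73.6 and 79.8 TPM (0.70 ± 0.06, adjusted p = 1.5e-07). In experiment 2 UTP6 went from 64.2, 61.7, 61.3 and 59.2 to 67.4, 67.7, 69.9 and 71.4 TPM (0.16 ± 0.05, adjusted p = 0.012), a call lost after scaling (0.12). UTP18, of the same processome, fell in both (-0.38 ± 0.09 and -0.88 ± 0.06), and RRP12, which exports pre-ribosomes, rose in both (0.49 ± 0.10 and 0.35 ± 0.08). NPM1, the abundant nucleolar chaperone, fell from 2970.4, 2888, 3060.2 and 2745 to 1898, 2031, 1899 and 1952 TPM in experiment 2 (-0.58 ± 0.05, adjusted p = 2.0e-07) and changed by -0.23 ± 0.06 in experiment 3. Cytosolic ribosomal protein genes fell more often than they rose. Experiment 3 called 6 of 78 tested members higher and 34 lower (median log2 fold change -0.15, or -0.31 relative to all genes), which became 0 and 46 after scaling. Experiment 2 called 9 of 78 tested members higher and 31 lower (median log2 fold change -0.08, or -0.09 relative to all genes), which became 2 and 15 after scaling. RPS6 fell from 1852, 1756, 1739 and 1886 to 1167, 1187, 1401 and 1598 TPM in experiment 3 (-0.45 ± 0.08, adjusted p = 1.4e-04) and changed by -0.37 ± 0.05 in experiment 2. RPSA fell from 1198, 1219, 1218 and 1172 to 729, 768, 877 and 988 TPM in experiment 3 (-0.53 ± 0.08, adjusted p = 2.4e-05) and changed by -0.28 ± 0.05 in experiment 2. For both, replicates 3 and 4 of sgRUVBL1 in experiment 3 lay closer to the controls than replicates 1 and 2.

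Genes of DNA replication and mitosis fell more often than they rose. Experiment 3 called 6 of 50 tested members higher and 12 lower (median log2 fold change -0.07, or -0.23 relative to all genes), which became 4 and 25 after scaling. Experiment 2 called 4 of 50 tested members higher and 33 lower (median log2 fold change -0.30, or -0.32 relative to all genes), which became 3 and 35 after scaling. In both experiments 12 fell and 4 rose. RRM2, the regulated subunit of ribonucleotide reductase, fell from 85.1, 85.01, 83.4 and 82.97 to 25.8, 29.6, 40.6 and 38.3 TPM in experiment 3 (-1.32 ± 0.11, adjusted p = 7.8e-08) and from 110.97, 114, 127 and 124 to 43.3, 49.7, 43.4 and 50.6 TPM in experiment 2 (-1.33 ± 0.07, adjusted p = 8.7e-10). LIG1, the replicative ligase, changed by -0.72 ± 0.12 and -0.99 ± 0.08, and TIMELESS, a fork protection factor, by -0.67 ± 0.11 and -0.95 ± 0.10. RPA2, the middle subunit of the single-strand binding protein RPA, went against the list. It rose from 47.2, 43.5, 44.2 and 44.6 to 107, 112, 85.5 and 89.9 TPM in experiment 3 (1.11 ± 0.08, adjusted p = 8.2e-09) and from 53.2, 54.6, 50.8 and 52.1 to 100.3, 111.1, 109.7 and 96.97 TPM in experiment 2 (0.97 ± 0.07, adjusted p = 1.2e-08). Mitosis and G2/M genes followed the same order. Experiment 3 called 4 of 48 tested members higher and 17 lower (median log2 fold change -0.06, or -0.21 relative to all genes), which became 2 and 23 after scaling. Experiment 2 called 3 of 48 tested members higher and 31 lower (median log2 fold change -0.31, or -0.33 relative to all genes), which became 2 and 32 after scaling. KIF20A, a kinesin of cytokinesis, changed by -0.83 ± 0.11 and -0.89 ± 0.08, CCNA2, cyclin A, by -0.71 ± 0.10 and -0.79 ± 0.07, and PLK1, the mitotic kinase, by -0.75 ± 0.14 and -0.57 ± 0.08. TOP2A, which untangles chromosomes, fell with overlapping groups in experiment 3 (-0.48 ± 0.10) and without overlap in experiment 2 (-0.96 ± 0.10).

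Among p53 target genes 9 rose and 2 fell in both experiments. Experiment 3 called 12 of 24 tested members higher and 3 lower (median log2 fold change 0.28, or 0.12 relative to all genes), which became 10 and 7 after scaling. Experiment 2 called 11 of 23 tested members higher and 5 lower (median log2 fold change 0.22, or 0.21 relative to all genes), which became 10 and 5 after scaling. CDKN1A, the cell cycle inhibitor p21, rose from 23.1, 24.03, 27.6 and 27.9 to 53.1, 52.0004, 36.4 and 36.1 TPM in experiment 3 (0.75 ± 0.12, adjusted p = 4.8e-05) and from 26.4, 28.3, 25.9 and 29.6 to 54.9, 55.7, 61.4 and 65.6 TPM in experiment 2 (1.08 ± 0.09, adjusted p = 6.2e-08). PLK3, a stress-responsive kinase, changed by 1.31 ± 0.16 and 1.34 ± 0.08, and the death receptor TNFRSF10B by 0.70 ± 0.11 and 0.78 ± 0.09. GDF15, a stress cytokine, rose more in experiment 2 (1.05 ± 0.21 and 2.08 ± 0.15, adjusted p = 0.013 for the difference). Integrated stress response genes went both ways, with the balance turned in experiment 3 after scaling. Experiment 3 called 7 of 21 tested members higher and 3 lower (median log2 fold change 0.03, or -0.13 relative to all genes), which became 6 and 7 after scaling. Experiment 2 called 8 of 20 tested members higher and 7 lower (median log2 fold change -0.01, or -0.02 relative to all genes), which became 7 and 8 after scaling. ATF3, a transcription factor of that response, rose from 4.23, 4.65, 5.38 and 4.83 to 17.7, 18.4, 10.2 and 9.95 TPM in experiment 3 (1.34 ± 0.18, adjusted p = 7.4e-06) and changed by 1.21 ± 0.11 in experiment 2. DDIT3, which encodes CHOP, changed by 1.07 ± 0.10 and 0.83 ± 0.10, the cystine transporter SLC7A11 by 1.22 ± 0.16 and 0.79 ± 0.14, and PSAT1, of serine synthesis, by -0.57 ± 0.08 and -0.81 ± 0.11.

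Keratins fell in both experiments. Of the intermediate filament keratins 7 of 9 tested fell in experiment 3 and 7 of 7 in experiment 2, 6 in both, and none rose, with the same counts after scaling. Their medians were -0.71 (-0.87 relative to all genes) and -0.56 (-0.57 relative to all genes). KRT18, a keratin of simple epithelia and one of the most abundant transcripts here, fell from 4921, 5062, 5166 and 5513 to 2750.4, 2788, 3572 and 3584 TPM in experiment 3 (-0.71 ± 0.08, adjusted p = 1.4e-06) and from 4633, 4713, 4328 and 4765 to 3066, 3053, 2714 and 2858 TPM in experiment 2 (-0.66 ± 0.05, adjusted p = 1.6e-08). KRT8, which pairs with KRT18, changed by -0.62 ± 0.08 and -0.54 ± 0.04, and KRT19, a ductal keratin, by -0.79 ± 0.11 and -0.62 ± 0.05. KRT16 and KRT15 are keratins of stratified epithelia. KRT16 changed by -1.32 ± 0.16 and -0.85 ± 0.09, and KRT15 by -1.20 ± 0.16 and -0.56 ± 0.10, less in experiment 2 (adjusted p = 0.026 for the difference). Over the same libraries the summed level of the 14 epithelial markers, which share KRT8, KRT18 and KRT19 with this list, was 20741 to 22404 TPM in sgRosa and 12119 to 15647 TPM in sgRUVBL1 of experiment 3, and 18135 to 19624 and 12757 to 13606 TPM in experiment 2.

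Among epithelial transcription factors falls outnumbered rises. Experiment 3 called 4 of 23 tested members higher and 8 lower (median log2 fold change -0.04, or -0.20 relative to all genes), which became 4 and 13 after scaling. Experiment 2 called 2 of 21 tested members higher and 14 lower (median log2 fold change -0.48, or -0.50 relative to all genes), which became 2 and 17 after scaling. Without sgRUVBL1 replicate 4 the experiment 3 median of these factors was 0.03. EHF, an ETS factor of epithelia, fell from 161, 141, 153 and 133 to 75.7, 82.4, 108 and 99.3 TPM in experiment 3 (-0.69 ± 0.09, adjusted p = 8.0e-06). In experiment 2 EHF fell further, from 154, 137, 179 and 161 to 50.3, 62.1, 53.8 and 57.2 TPM (-1.48 ± 0.09, adjusted p = 5.9e-09), and the changes differed (adjusted p = 0.0015). FOXA1, the pioneer factor, changed by -0.47 ± 0.16 and -0.78 ± 0.17, and GRHL3, a grainyhead factor, by -0.68 ± 0.17 and -0.998 ± 0.18, both with overlapping groups in experiment 3. OVOL1, a zinc-finger repressor, rose (0.47 ± 0.12 and 1.02 ± 0.12). GATA6, a marker of the classical subtype, fell in experiment 2 (-0.39 ± 0.09, adjusted p = 0.002) and measured -0.18 ± 0.09 in experiment 3 (adjusted p = 0.13, or 0.0014 after scaling). HNF4A, a hepatic and gut factor, was called in neither (-0.04 ± 0.10 and -0.13 ± 0.11).

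Genes of laminin-332, hemidesmosomes and desmosomes also fell more often than they rose. Experiment 3 called 4 of 19 tested members higher and 8 lower (median log2 fold change -0.10, or -0.25 relative to all genes), which became 2 and 11 after scaling. Experiment 2 called 2 of 19 tested members higher and 12 lower (median log2 fold change -0.39, or -0.41 relative to all genes), which became 3 and 12 after scaling. The difference between the experiments was called for 9 of the 19. The longest of 4 bins of transcript length held 14 of the 19 genes and 7 of those 9. Over all genes in that bin the median change was 0.23 in experiment 3 and -0.10 in experiment 2, and the part of length was not tested. ITGB4, the hemidesmosome integrin, fell from 677, 747, 635 and 598 to 299.8, 285, 409.8 and 295 TPM in experiment 3 (-1.05 ± 0.20, adjusted p = 2.8e-04) and from 288, 262, 289.99 and 298 to 154, 159, 166 and 175 TPM in experiment 2 (-0.80 ± 0.13, adjusted p = 7.6e-05). The desmosomal cadherin DSG3 changed by -0.997 ± 0.14 and -0.92 ± 0.13, and DSC2 by -0.45 ± 0.10 and -0.93 ± 0.11. LAMB3, a chain of laminin-332, rose instead. It went from 75.8, 83.2, 78.5 and 87.5 to 184, 182, 129.9 and 114 TPM in experiment 3 (0.87 ± 0.15, adjusted p = 7.8e-05) and from 71.6, 66.9, 68.2 and 72.9 to 162, 172, 189.5 and 202 TPM in experiment 2 (1.36 ± 0.09, adjusted p = 1.0e-08). Brush border and intestinal genes were mixed, and no member was called higher in experiment 3 after scaling. Experiment 3 called 4 of 24 tested members higher and 9 lower (median log2 fold change -0.03, or -0.18 relative to all genes), which became 0 and 12 after scaling. Experiment 2 called 6 of 25 tested members higher and 7 lower (median log2 fold change 0.04, or 0.03 relative to all genes), which became 4 and 9 after scaling. TSPAN8, a tetraspanin of the gut, fell from 2021, 1892, 2212 and 2602 to 677, 674, 1204 and 1355 TPM in experiment 3 (-1.22 ± 0.17, adjusted p = 1.4e-05) and from 667, 661, 657 and 623 to 368, 373, 356 and 341 TPM in experiment 2 (-0.86 ± 0.06, adjusted p = 9.3e-09). MYO1A, the brush border myosin, changed by -1.32 ± 0.21 and -1.24 ± 0.09, and AGR2, a mucin-folding isomerase, by -0.79 ± 0.29 and -0.76 ± 0.10. The AGR2 groups overlapped in experiment 3, and its call there was lost without sgRUVBL1 replicate 1 (adjusted p = 0.10).

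The Moffitt signatures are lists of genes that mark the classical and basal-like subtypes of pancreatic cancer. In the classical signature 44 genes fell and 9 rose in both experiments. Experiment 3 called 21 of 151 tested members higher and 67 lower (median log2 fold change -0.20, or -0.36 relative to all genes), which became 12 and 91 after scaling. Experiment 2 called 24 of 139 tested members higher and 66 lower (median log2 fold change -0.21, or -0.23 relative to all genes), which became 21 and 75 after scaling. MUC1, a cell surface mucin, fell from 46.999, 51.1, 42.3 and 44.9 to 12.6, 14.5, 19.3 and 17.6 TPM in experiment 3 (-1.49 ± 0.44, adjusted p = 0.0083) and from 10.8, 12.2, 12.95 and 17.2 to 5.05, 6.96, 5.35 and 5.01 TPM in experiment 2 (-1.11 ± 0.15, adjusted p = 1.7e-05). LMO4, a LIM-only cofactor, fell in both (-1.20 ± 0.14 and -1.38 ± 0.07). The basal-like signature held rises and falls in closer numbers, 19 and 24 in both experiments. Experiment 3 called 29 of 115 tested members higher and 37 lower (median log2 fold change -0.01, or -0.17 relative to all genes), which became 18 and 48 after scaling. Experiment 2 called 30 of 109 tested members higher and 39 lower (median log2 fold change -0.07, or -0.09 relative to all genes), which became 30 and 45 after scaling. LEMD1 changed by 1.48 ± 0.19 and 1.17 ± 0.22 and MLF1 by 1.19 ± 0.14 and 1.24 ± 0.09, while the kallikrein KLK8 changed by -1.17 ± 0.35 and -1.34 ± 0.14 and PHACTR3, a phosphatase regulator, by -1.40 ± 0.23 and -1.06 ± 0.11.

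The study's KLF5 direct targets were chosen by its authors on AsPC-1 data of KLF5 loss, so they are not independent of this cell line. They split nearly evenly, with 14 up and 14 down in both experiments, and scaling turned the balance in experiment 3. Experiment 3 called 20 of 68 tested members higher and 17 lower (median log2 fold change 0.04, or -0.12 relative to all genes), which became 12 and 27 after scaling. Experiment 2 called 22 of 68 tested members higher and 25 lower (median log2 fold change -0.07, or -0.09 relative to all genes), which became 21 and 32 after scaling. FGF19, the enterohepatic hormone, fell from 74.1, 76.6, 72.4 and 68.1 to 27.03, 30.3, 48.4 and 41.6 TPM in experiment 3 (-0.999 ± 0.14, adjusted p = 1.7e-05) and from 64.02, 69.8, 72.98 and 74.8 to 30.04, 28.5, 27.2 and 26.4 TPM in experiment 2 (-1.30 ± 0.08, adjusted p = 5.9e-09). EDAR, the ectodysplasin receptor, changed by -1.16 ± 0.26 and -1.38 ± 0.11, and the growth factor FGF18 by -1.20 ± 0.15 and -0.94 ± 0.12. LAMB3, also on this list, rose as given above.

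**Figure D4:**
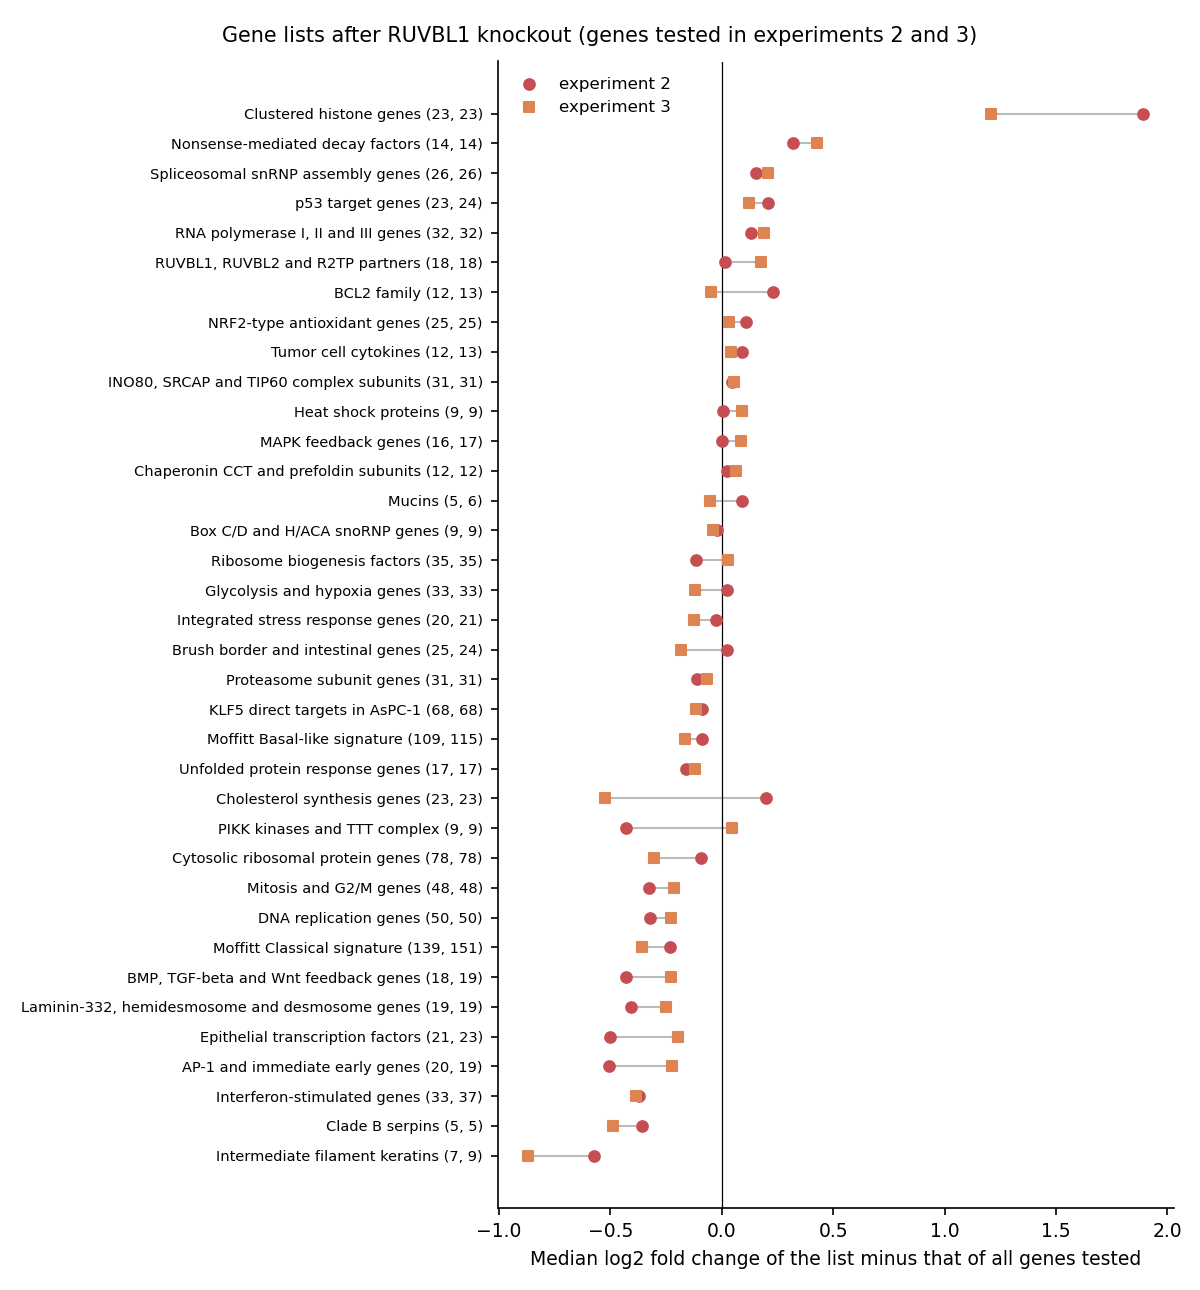
Median log2 fold change of each gene list minus that of all genes tested (x axis), with circles for experiment 2 and squares for experiment 3, and after each name the numbers of members tested in experiments 2 and 3. Clustered histone genes stand furthest to the right (1.89 and 1.21), intermediate filament keratins furthest to the left (-0.57 and -0.87), and cholesterol synthesis genes lie on opposite sides (0.20 and -0.53).

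Interferon-stimulated genes fell more often than they rose in both experiments. Experiment 3 called 4 of 37 tested members higher and 15 lower (median log2 fold change -0.23, or -0.39 relative to all genes), which became 3 and 21 after scaling. Experiment 2 called 8 of 33 tested members higher and 20 lower (median log2 fold change -0.35, or -0.37 relative to all genes), which became 8 and 20 after scaling. IFIT3, an antiviral effector, fell from 55.5, 56.2, 63.4 and 62.8 to 26.9, 30.4, 36.4 and 32.8 TPM in experiment 3 (-0.90 ± 0.08, adjusted p = 1.8e-07) and from 22.8, 22.1, 25.1 and 25.9 to 8.84, 9.86, 9.65 and 8.22 TPM in experiment 2 (-1.30 ± 0.09, adjusted p = 2.4e-08). OASL changed by -1.06 ± 0.10 and -1.03 ± 0.07 and IFI44 by -0.87 ± 0.10 and -1.29 ± 0.13. IRF7, an interferon regulatory factor, rose (0.65 ± 0.11 and 1.27 ± 0.10).

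The 12 genes with the largest rises in experiment 3 were read again in experiment 2. There 3489 of the 11645 genes tested were called higher, and 11 of these 12 were among them. The exception was NPIPA1, of a family of near-identical copies. It measured 2.60, 7.94, 1.96 and 6.75 TPM in sgRosa and 23.9, 15.7, 18.7 and 20.8 TPM in sgRUVBL1 of experiment 3 (1.98 ± 0.61, adjusted p = 0.01, or 0.081 with a pseudocount of 0.1). In experiment 2 NPIPA1 measured 7.70, 7.42, 6.48 and 4.95 and 11.2, 14.7, 17.1 and 4.94 TPM in the same order, with overlap (0.67 ± 0.49, adjusted p = 0.26). Outside the histone genes, RXFP4, a receptor for the gut hormone INSL5, rose from 5.65, 4.09, 4.38 and 5.15 to 39.9, 31.9, 23.3 and 22.4 TPM in experiment 3 (2.35 ± 0.18, adjusted p = 2.1e-08). In experiment 2 RXFP4 rose further, from 5.40, 4.50, 4.02 and 5.65 to 59.5, 52.8, 63.3 and 63.2 TPM (3.37 ± 0.13, adjusted p = 3.5e-11), and the changes differed (adjusted p = 0.003). KISS1, which encodes the peptide kisspeptin, rose from 2.22, 2.14, 2.15 and 4.40 to 21.3, 23.1, 13.2 and 16.7 TPM in experiment 3 (2.404 ± 0.23, adjusted p = 1.9e-07) and from 1.27, 0, 1.48 and 1.68 to 9.63, 6.19, 13.98 and 14.4 TPM in experiment 2 (2.55 ± 0.28, adjusted p = 2.2e-06). An uncharacterized LOC gene completed the list. Groups without overlap in experiment 3 were a condition for this list. RXFP4 met the same condition in experiment 2, as one of the largest rises there. The KISS1 groups, not named for experiment 2, did not overlap there either. The 12 count HIST2H2AA3 and HIST2H2AA4, and likewise HIST2H4A and HIST2H4B, as separate genes though their values are identical.

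Of the 12 largest falls in experiment 3, 11 were called lower in experiment 2 as well, in several cases from a far lower control level. Over all genes tested in experiment 2, 3009 of 11645 were called lower. KRT23, a type I keratin, dropped from 34.8, 34.8, 43.4 and 73.05 to 1.48, 2.06, 8.12 and 8.49 TPM in experiment 3 (-3.16 ± 0.35, adjusted p = 1.1e-06). In experiment 2 KRT23 stood at 6.46, 7.02, 7.68 and 6.14 TPM in sgRosa and 5.15, 5.62, 5.28 and 4.56 TPM after knockout (-0.35 ± 0.10, adjusted p = 0.0098). PRR15L fell from 45.9, 44.8, 47.03 and 55.8 to 10.2, 10.3, 23.1 and 26.995 TPM in experiment 3 (-1.52 ± 0.22, adjusted p = 1.8e-05) and from 2.03, 2.02, 1.95 and 1.81 to 1.17, 0.48, 0.75 and 0.951 TPM in experiment 2 (-0.70 ± 0.13, adjusted p = 2.4e-04). In both genes the sgRosa libraries differed more between the experiments than within one, and replicates 1 and 2 of sgRUVBL1 in experiment 3 lay below replicates 3 and 4. The same order held for GJB1, the gap junction protein connexin 32, which fell from 21.9, 23.6, 26.8 and 23.04 to 4.07, 4.07, 9.998 and 10.5 TPM in experiment 3 (-1.71 ± 0.26, adjusted p = 2.6e-05) and changed by -0.64 ± 0.13 in experiment 2. MYB, a transcription factor, fell from 11.3, 9.32, 11.1 and 9.63 to 0.644, 1.83, 4.02 and 3.81 TPM in experiment 3 (-1.80 ± 0.26, adjusted p = 1.7e-05) and from 3.90, 4.37, 5.84 and 4.87 to 0.622, 0.588, 1.02 and 0.625 TPM in experiment 2 (-1.74 ± 0.14, adjusted p = 9.1e-08). GSTZ1, of tyrosine breakdown, fell in both (-1.58 ± 0.17 and -1.10 ± 0.11), as did LOXL4, a lysyl oxidase (-1.74 ± 0.14 and -0.96 ± 0.11), and RAB15 (-1.59 ± 0.10 and -0.65 ± 0.13). Smaller changes in experiment 2 were found for GPX2, a glutathione peroxidase of the gut (-1.82 ± 0.23 and -0.34 ± 0.14), SPINK4, of goblet cells (-2.08 ± 0.60 and -0.72 ± 0.25), and the prostaglandin synthase PTGDS (-1.59 ± 0.19 and -0.59 ± 0.20), with a called difference for each. ALPP and ALPPL2 are placental-type alkaline phosphatases with near-identical sequences. ALPP changed by -1.82 ± 0.19 and -0.90 ± 0.14, and ALPPL2 fell in experiment 3 (-2.35 ± 0.18, adjusted p = 2.7e-08). ALPPL2 was the 1 gene of the 12 not called in experiment 2 (-0.19 ± 0.15, adjusted p = 0.3), where it stood at 1.35, 1.27, 1.48 and 0.985 TPM in sgRosa and 0.597, 1.63, 0.842 and 1.04 TPM in sgRUVBL1.

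Of the 8 largest falls in experiment 2, RUVBL1 itself included, 7 were called lower in experiment 3. Over all genes tested in experiment 3, 1862 of 12224 were called lower. PEG10, derived from a retrotransposon, fell from 38.2, 32.3, 45.9 and 41.4 to 9.41, 11.2, 9.56 and 9.89 TPM in experiment 2 (-1.87 ± 0.12, adjusted p = 6.4e-09) and from 52.5, 52.4, 48.6 and 43.4 to 14.4, 14.5, 25.7 and 19.3 TPM in experiment 3 (-1.40 ± 0.18, adjusted p = 4.8e-06). SPNS2, a transporter of sphingosine-1-phosphate, changed by -1.37 ± 0.14 and -1.78 ± 0.12, and ALOX5, the leukotriene-forming lipoxygenase, by -1.27 ± 0.14 and -1.64 ± 0.12. The Wnt modulator DACT1 changed by -1.23 ± 0.14 and -1.62 ± 0.10 and CHML, a Rab escort protein, by -1.02 ± 0.17 and -1.61 ± 0.14. B3GALT5, a galactosyltransferase, changed by -0.61 ± 0.24 and -1.51 ± 0.33, with overlapping groups in experiment 3 and a call there that was lost without any 1 of 5 libraries. GRAMD1B, a carrier of cholesterol from the plasma membrane, was the exception. It fell from 36.6, 36.3, 44.2 and 39.9 to 10.8, 10.8, 12.3 and 10.5 TPM in experiment 2 (-1.73 ± 0.16, adjusted p = 2.7e-07). In experiment 3 GRAMD1B measured 78.8, 82.8, 78.8 and 69.4 TPM in sgRosa and 59.4, 62.1, 79.9 and 60.9 TPM in sgRUVBL1 (-0.24 ± 0.11, adjusted p = 0.065, or 0.011 without sgRUVBL1 replicate 3).

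For 2861 of 12006 genes the change itself differed between the experiments (23.8%), 2106 with a more positive and 755 with a more negative value in experiment 3. After scaling the balance turned to 1146 positive and 1652 negative, with the median difference moving from 0.12 to -0.04. Of the 2804 tested in both fits, 542 were called in both in the same direction, 171 in opposite directions, 964 in experiment 3 only, 966 in experiment 2 only and 161 in neither.

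Cholesterol synthesis genes had negative differences in 17 of 23 cases (21 after scaling) and positive ones in none. Experiment 3 called 3 of 23 tested members higher and 14 lower (median log2 fold change -0.37, or -0.53 relative to all genes), which became 1 and 18 after scaling. Experiment 2 called 12 of 23 tested members higher and 5 lower (median log2 fold change 0.22, or 0.20 relative to all genes), which became 12 and 6 after scaling. MSMO1, a methylsterol oxidase, fell in experiment 3 from 66.9, 62.3, 85.002 and 83.1 to 40.8, 43.2, 51.9 and 51.9 TPM (-0.65 ± 0.12, adjusted p = 1.5e-04). In experiment 2 MSMO1 rose from 18.5, 18.3, 20.2 and 20.9 to 24.3, 27.5, 27.4 and 26.2 TPM (0.42 ± 0.07, adjusted p = 1.4e-04). SQLE, squalene epoxidase, stood at 63.1, 65.4, 84.04 and 93.6 TPM in sgRosa and 51.03, 51.3, 67.1 and 65.2 TPM in sgRUVBL1 of experiment 3, with overlap (-0.37 ± 0.12, adjusted p = 0.013), a call lost without sgRUVBL1 replicate 1 or 2 or sgRosa replicate 4. In experiment 2 SQLE rose from 26.6, 24.8, 26.7 and 23.2 to 36.3, 36.97, 34.4 and 35.7 TPM (0.49 ± 0.07, adjusted p = 4.0e-05). In both genes the sgRosa level was higher in experiment 3, and the sgRUVBL1 levels of the 2 experiments lay closer together than the sgRosa levels did. IDI1, the isopentenyl diphosphate isomerase, rose in experiment 2 (0.85 ± 0.08, adjusted p = 3.6e-07) and measured 0.10 ± 0.12 in experiment 3. INSIG1, which holds back SREBP, fell in experiment 3 (-0.78 ± 0.14) and was not called in experiment 2 (-0.16 ± 0.08). SC5D, a sterol desaturase, rose in both (0.63 ± 0.14 and 0.87 ± 0.09).

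AP-1 and immediate early genes had positive differences in 10 of 20 cases and a negative one in 1, or 7 and 2 after scaling. Experiment 3 called 4 of 19 tested members higher and 7 lower (median log2 fold change -0.07, or -0.22 relative to all genes), which became 3 and 7 after scaling. Experiment 2 called 3 of 20 tested members higher and 14 lower (median log2 fold change -0.49, or -0.50 relative to all genes), which became 3 and 15 after scaling. Leaving out sgRUVBL1 replicate 4 turned the experiment 3 median of this list to 0.01. FOS, a subunit of AP-1, stood at 578, 578, 622 and 668 TPM in the sgRosa libraries of experiment 2 and fell to 278, 247, 236 and 225.03 TPM (-1.31 ± 0.08, adjusted p = 6.8e-09). In experiment 3 FOS measured 31.3, 32.7, 37.8 and 34.6 TPM in sgRosa and 30.4, 24.3, 37.3 and 33.3 TPM in sgRUVBL1 (-0.13 ± 0.15, adjusted p = 0.48). FOSB, its relative, fell from 120.5, 123, 139.5 and 159 to 65.1, 58.4, 69.7 and 59.7 TPM in experiment 2 (-1.08 ± 0.14, adjusted p = 1.2e-05) and rose from 2.85, 3.15, 3.61 and 2.94 to 9.09, 8.80, 6.38 and 5.05 TPM in experiment 3 (0.98 ± 0.15, adjusted p = 3.3e-05). The controls of experiment 2 lay far above those of experiment 3 for these genes, as they did for JUN, at 174 ± 12.004 against 19.8 ± 2.32 TPM, and EGR1, at 362 ± 44.8 against 21.8 ± 1.47 TPM (mean ± SD, n = 4). KLF2 fell in both (-1.01 ± 0.15 and -0.96 ± 0.12), and so did JUND, another AP-1 subunit (-0.56 ± 0.14 and -0.51 ± 0.09). PPP1R15A, which directs the dephosphorylation of eIF2 alpha, fell in experiment 2 (-0.29 ± 0.07, adjusted p = 0.0034) and rose in experiment 3 (0.73 ± 0.12, adjusted p = 6.5e-05).

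Other large differences were found in single genes. TP53INP2, an autophagy regulator, rose in experiment 2 from 1.45, 1.73, 2.08 and 1.58 to 7.09, 5.91, 8.18 and 7.58 TPM (1.59 ± 0.13, adjusted p = 6.9e-08). In experiment 3 TP53INP2 measured 12.9, 15.02, 14.9 and 23.5 TPM in sgRosa and 12.6, 11.1, 9.85 and 10.2 TPM in sgRUVBL1 (-0.53 ± 0.28, adjusted p = 0.12). ACOT1, an acyl-CoA thioesterase with a near-identical neighbor, rose in experiment 2 from 7.64, 9.79, 7.87 and 9.92 to 50.3, 48.04, 57.7 and 50.6 TPM (2.43 ± 0.11, adjusted p = 3.5e-10). In experiment 3 ACOT1 stood at 26.98, 27.9, 32.7 and 38.1 TPM in sgRosa and 47.01, 46.4, 34.6 and 34.4 TPM in sgRUVBL1, with overlap (0.36 ± 0.14, adjusted p = 0.044, or 0.28 after scaling). PHIP, BDP1 and DST had positive differences (1.42 ± 0.32, 1.31 ± 0.28 and 1.29 ± 0.42). In each of them the experiment 3 groups overlapped, and replicate 4 was the lowest library of sgRUVBL1 and also of sgRosa. REG4, a secreted lectin of the gut, fell in experiment 3 (-1.18 ± 0.33, adjusted p = 0.006) and measured 0.33 ± 0.18 in experiment 2, with overlapping groups in both.

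The difference between the experiments moved with transcript length. The 11706 genes with a known length were split by it into 4 equal bins. The median difference was -0.04 in the bin of the shortest transcripts (249 to 1939 bases), 0.05 and 0.17 in the middle bins and 0.31 in the bin of the longest (5043 to 34626 bases). From the shortest to the longest bin the share called positive went from 5.603% to 31.6% and the share called negative from 14.4% to 1.16%. The median change of the longest bin was 0.23 in experiment 3 and -0.10 in experiment 2. Length also separated libraries of one group. Against the mean of the sgRosa libraries, the longest bin had a median of -0.19 and 0.21 in sgRosa replicates 2 and 3 of experiment 2. In experiment 3 the median was 0.32, 0.35, 0.25 and -0.0008 in the 4 sgRUVBL1 libraries. It was 0.04, 0.03, 0.06 and -0.13 in the 4 sgRosa libraries, so replicate 4 was the lowest of both groups. The part of length in the called differences was not tested.

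**Figure D5:**
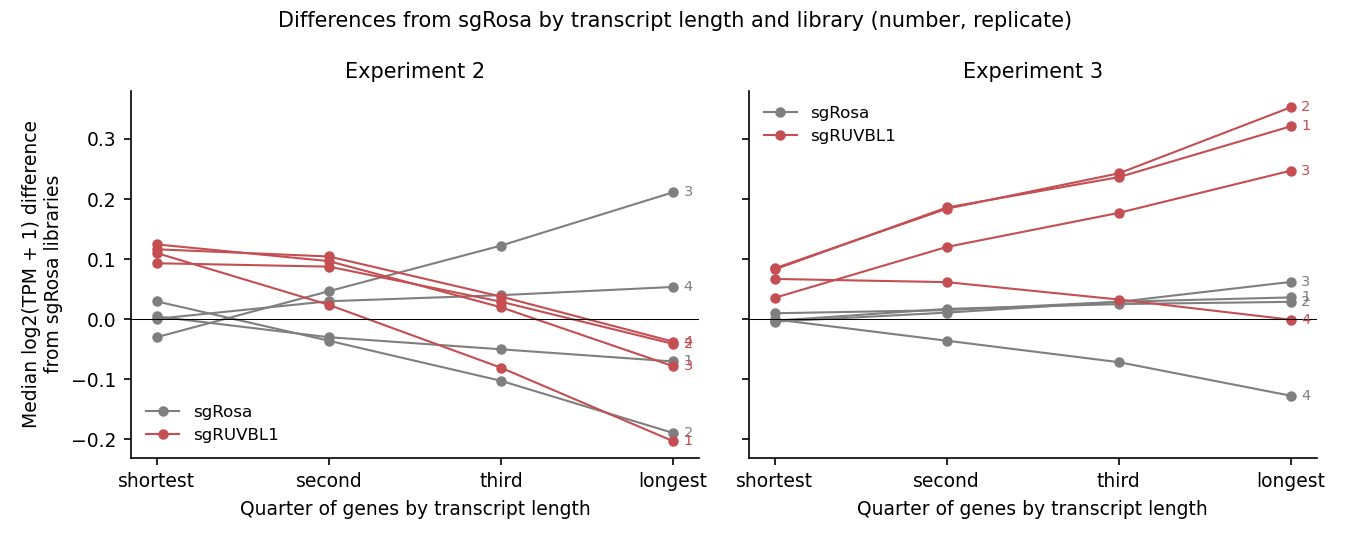
Median difference in log2(TPM + 1) from the mean of the sgRosa libraries (y axis) in 4 equal bins of genes by transcript length (x axis), one line per library with its replicate number, experiment 2 at the left and experiment 3 at the right. In the longest bin sgRUVBL1 replicates 1 to 3 of experiment 3 reach 0.32, 0.35 and 0.25 and replicate 4 lies near 0. The sgRosa libraries spread from -0.19 to 0.21 in experiment 2 and from -0.13 (replicate 4) to 0.06 in experiment 3.

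Experiment 3 allowed sgRUVBL1 to be set directly against sgRUVBL2, the knockout of its partner. These groups differed in 454 genes (3.71%), 187 higher and 267 lower in sgRUVBL1, while 2444 genes had an unadjusted p under 0.05. With only these 8 libraries in the fit 2 genes were called, RUVBL1 and RUVBL2, and without sgRUVBL1 replicate 1 or 2 the count was 98 or 117, and without sgRUVBL2 replicate 1 it was 287. RUVBL1 stood at 29.9, 27.4, 34.7 and 33.8 TPM in sgRUVBL1 and 73.995, 73.6, 68.9 and 74.6 TPM in sgRUVBL2 (-1.19 ± 0.06, adjusted p = 2.0e-09). RUVBL2 stood at 138, 129, 124.6 and 119 TPM in sgRUVBL1 and 55.5, 31.4, 33.4 and 47.8 TPM in sgRUVBL2 (1.62 ± 0.12, adjusted p = 4.5e-07). KRT23 was lower in sgRUVBL1, at 1.48, 2.06, 8.12 and 8.49 TPM, than in sgRUVBL2, at 14.9, 12.9, 9.29 and 8.84 TPM (-1.27 ± 0.35, adjusted p = 0.047), a call lost under most alternatives, with an adjusted p of up to 0.27. The cytokines CXCL8 and CCL20 and the integrin ITGA5 were lower in sgRUVBL1 (-0.97 ± 0.21, -1.14 ± 0.21 and -0.86 ± 0.14), with CXCL8 at 5.11, 8.09, 3.90 and 6.19 TPM against 12.2, 15.4, 10.9 and 10.2 TPM. The higher ones were the lipase cofactor ABHD5 (0.82 ± 0.21), AGAP4 (0.72 ± 0.19), PIDD1, a p53-induced death-domain protein (0.69 ± 0.18), and the readthrough WRB-SH3BGR (2.17 ± 0.41). PRPF6 was higher in sgRUVBL1 than in sgRUVBL2, at 287, 252, 297 and 295 TPM (0.24 ± 0.06, adjusted p = 0.034), whereas PRPF3, at 100.1, 102, 108 and 119 TPM in sgRUVBL2, and RRN3, at 128, 158, 142 and 145 TPM, were not called (0.10 ± 0.09 and 0.21 ± 0.07). Of the 23 histone genes 3 were higher in sgRUVBL1 and none lower, and of the 37 interferon-stimulated genes 9 were lower and none higher.

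Against sgKLF5, 7153 genes differed (58.5%), 4782 higher and 2371 lower in sgRUVBL1, or 3419 and 3560 after scaling. Of the 68 KLF5 direct targets 61 were higher in sgRUVBL1 than in sgKLF5 and 2 lower, or 59 and 3 after scaling, with a median of 0.98 (0.83 relative to all genes). The study picked these targets for their falls after KLF5 degradation in AsPC-1, so this count is largely set by that choice. KLF5 transcript itself stood at 140.4, 177, 193 and 161 TPM in sgKLF5 and 159.6, 152, 162 and 148 TPM in sgRosa, with means of 168 ± 22.5 and 156 ± 6.46 TPM (SD, n = 4), so the mean was not lower in sgKLF5. KLF5 was lower in sgRUVBL1 than in sgKLF5 (-0.63 ± 0.09, adjusted p = 9.2e-06). Cas9 guides act on DNA and may leave transcript in place, so this level does not check the knockout. LAMB3 was among the 61, at 184, 182, 129.9 and 114 TPM in sgRUVBL1 and 35.6, 52.8, 52.1 and 42.8 TPM in sgKLF5 (1.70 ± 0.15, adjusted p = 2.0e-08). The 2 lower ones were FGF19 and KRT18. FGF19 stood at 27.03, 30.3, 48.4 and 41.6 TPM in sgRUVBL1 and 41.7, 53.5, 53.3 and 40.7 TPM in sgKLF5 (-0.38 ± 0.14, adjusted p = 0.03). KRT18 stood at 2750.4, 2788, 3572 and 3584 TPM in sgRUVBL1 and 6399, 5893, 5712 and 5906 TPM in sgKLF5 (-0.92 ± 0.08, adjusted p = 2.5e-08), and 8 of the 9 keratins tested were lower in sgRUVBL1. Clustered histone genes were higher in sgRUVBL1 than in sgKLF5 in 20 of 23 cases and lower in none.

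CDK1, the mitotic kinase, and RPA3, a subunit of RPA, are needed for proliferation in most cells, and their knockouts were further groups with 2 libraries each. CDK1 measured 122 and 134 TPM in sgCDK1, 156, 141, 155 and 135 TPM in sgRosa and 104, 99.8, 129 and 127 TPM in sgRUVBL1. RPA3 measured 29.6 and 32.1 TPM in sgRpa3, 43.9, 39.2, 44.4 and 41.8 TPM in sgRosa and 56.2, 57.7, 55.5 and 65.8 TPM in sgRUVBL1. Both targeted transcripts were thus still detected in their own knockout libraries, at levels below all 4 sgRosa libraries, for CDK1 only narrowly. Against the mean of both, 6262 genes differed (51.2%), 3928 higher and 2334 lower in sgRUVBL1, or 2872 and 3375 after scaling. RXFP4 stood at 39.9, 31.9, 23.3 and 22.4 TPM in sgRUVBL1, 2.67 and 3.36 TPM in sgCDK1 and 5.06 and 4.25 TPM in sgRpa3 (2.64 ± 0.18, adjusted p = 4.7e-09). KISS1 measured 1.65 and 2.63 TPM in sgCDK1 and 2.85 and 2.97 TPM in sgRpa3, below sgRUVBL1 (2.46 ± 0.23, adjusted p = 1.2e-07). PRPF3 was higher in sgRUVBL1 than in sgCDK1, at 29.1 and 29.3 TPM, and sgRpa3, at 42.99 and 41.2 TPM (1.68 ± 0.09, adjusted p = 3.3e-10), as was PDRG1, at 27.4 and 25.4 TPM in sgCDK1 and 30.7 and 28.5 TPM in sgRpa3 (1.48 ± 0.09, adjusted p = 1.2e-09). Of the 23 histone genes 18 and of the 14 decay factors 12 were higher in sgRUVBL1, and none was lower. CDKN1A measured 39.4 and 35.4 TPM in sgCDK1 and 56.7 and 50.3 TPM in sgRpa3 and was not called (-0.03 ± 0.12, adjusted p = 0.84). KRT23 was the lowest relative to these groups among the genes above the 10 TPM floor (-3.62 ± 0.35, adjusted p = 1.9e-07), followed by SPINK4, the fructose transporter SLC2A5, RARRES1 and GJB1 (-2.81 ± 0.60, -2.33 ± 0.19, -2.29 ± 0.21 and -2.19 ± 0.26). The pooled contrast joins groups that were not alike in these genes. SPINK4 stood at 2.75, 1.56, 6.21 and 4.50 TPM in sgRUVBL1, 74.1 and 65.5 TPM in sgCDK1, 8.10 and 19.5 TPM in sgRpa3 and 12.5, 15.6, 26.5 and 18.4 TPM in sgRosa. KRT23 stood at 1.48, 2.06, 8.12 and 8.49 TPM in sgRUVBL1, 43.1 and 65.9 TPM in sgCDK1 and 72.9 and 68.1 TPM in sgRpa3. SLC2A5 measured 15.4 and 16.1 TPM in sgCDK1 and 9.18 and 7.10 TPM in sgRpa3, RARRES1 105 and 110.1 TPM and 50.7 and 45.1 TPM, and GJB1 43.8 and 49.4 TPM and 26.2 and 21.7 TPM. For SPINK4, SLC2A5, RARRES1 and GJB1 both sgCDK1 libraries lay above both sgRpa3 libraries, a gap that was not tested, while KRT23 was no higher in sgCDK1. Of 151 classical signature genes 90 were lower in sgRUVBL1 than in the pooled groups and 14 higher, against 67 lower and 21 higher relative to sgRosa. How far changes in sgCDK1 or sgRpa3 themselves enter the first count was not tested.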

How the data were processed

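The deposited values were TPM, made by the authors from single-end poly-A RNA-seq libraries with kallisto against hg38 and summed to genes by tximport. The study removed low-abundance transcripts for its differential expression, with no limit given in the sources used here. Whether that step touched the TPM values was not stated, and read counts were not used. Groups were taken from the sample labels. Log2(TPM + 1) was fitted with limma 3.58.1 (R 4.3.3, empirical Bayes with trend) over all libraries of an experiment (20 in experiment 3, 12 in experiment 2), and the difference between the experiments over the 16 sgRUVBL1 and sgRosa libraries. Genes averaging 1 TPM or more were tested, two-sided, with Benjamini-Hochberg adjustment over all genes and a threshold of 0.05; every adjusted p is from these limma fits. Alternatives were median-of-ratios scaling, a pseudocount of 0.1, a floor of 5 TPM or none in place of 1 TPM, the replicate number as a block, other sets of libraries in the fit, and leaving out each library. Genes were named if they were knockout targets, had the largest called changes, differences or direct contrasts (group mean of 10 TPM or more, groups not overlapping except for differences), were the up to 4 members of a list with the largest changes called in both experiments, or were set against them. Coordinates came from a GRCh38 gene annotation, and lengths from the transcript that it marks as Ensembl canonical for each gene. Gene names were matched through current and older symbols, with RefSeq among their sources, and 568 were not matched. The members and gene lists were chosen with earlier results of these data known. A few genes that the rule named are not reported here.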

Additional observations from a re-analysis of the deposited data

Results flagged for a closer look

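In 22 of 640 groups of 4 libraries over the named genes, 1 library stood apart from the other 3, with a gap to the nearest that took more of the group's range than the 95% limit of Dixon's test. Chance alone gives such a library in about 1 in 20 groups. In sgRosa experiment 2 the library apart was replicate 2 for KISS1 (0 TPM) and replicate 3 for WRB-SH3BGR (0.117 TPM). In sgRosa experiment 3 the library apart was replicate 4 for KISS1 (4.40 TPM), replicate 4 for PRPF3 (34.3 TPM), replicate 2 for PRPF4 (34.2 TPM), replicate 3 for PLK3 (13.1 TPM), replicate 4 for KLF2 (14.2 TPM), replicate 3 for PIH1D1 (52.3 TPM) and replicate 4 for JUN (23.2 TPM). In sgRUVBL1 experiment 2 the library apart was replicate 3 for MYB (1.02 TPM), replicate 3 for GRHL3 (1.46 TPM), replicate 1 for DSG3 (1.70 TPM), replicate 1 for PRPF8 (97.1 TPM), replicate 3 for PRPF31 (53.7 TPM), replicate 1 for MTOR (9.26 TPM) and replicate 3 for KRT8 (5367 TPM). In sgRUVBL1 experiment 3 the library apart was replicate 3 for RAB15 (6.76 TPM), replicate 3 for GRAMD1B (79.9 TPM), replicate 3 for YEATS4 (17.8 TPM), replicate 3 for TOP2A (94.7 TPM), replicate 3 for ITGB4 (409.8 TPM) and replicate 4 for MTOR (13.1 TPM).

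For 63 of the 160 named genes the change itself differed between the experiments at an adjusted p under 0.05 (limma, difference of the changes, experiment 3 minus experiment 2), against 23.8% of all genes tested. The count is partly fixed by the choice of genes, since 12 of the named genes were taken for the size of that difference and others as contrasts within a list. Histone genes differed by -1.20 (HIST1H2BD), -1.13 (HIST2H4A), -1.13 (HIST2H4B), -0.53 (HIST2H2AA3) and -0.53 (HIST2H2AA4). In cholesterol synthesis and SREBP-linked genes the differences were -1.06 (MSMO1), -0.86 (SQLE), -0.75 (IDI1), -0.64 (DHCR7) and -0.62 (INSIG1). AP-1, immediate early and stress genes gave -1.03 (GDF15), 0.79 (GADD45A), 1.02 (PPP1R15A), 1.05 (JUN), 1.06 (EGR1), 1.18 (FOS) and 2.06 (FOSB). For genes of PIKK kinases, decay, splicing, polymerases, snoRNPs and R2TP the difference was -0.25 (NOP10), 0.31 (PRPF4), 0.35 (UPF3B), 0.42 (NOP58), 0.58 (RPAP3), 0.64 (POLR3G), 0.74 (ATR), 0.79 (PRKDC), 0.88 (UPF2), 0.93 (SMG1) and 1.103 (ATM). Ribosome biogenesis and cell cycle genes differed by 0.35 (NPM1), 0.48 (TOP2A), 0.50 (UTP18) and 0.53 (UTP6). Epithelial and interferon genes gave -1.51 (REG4), -0.83 (MUC13), -0.64 (KRT15), -0.61 (IRF7), -0.55 (OVOL1), -0.49 (LAMB3), 0.41 (IFIT3), 0.48 (DSC2), 0.62 (SERPINB5) and 0.79 (EHF). Genes named for large falls in either experiment differed by -2.81 (KRT23), -2.16 (ALPPL2), -1.48 (GPX2), -1.36 (SPINK4), -1.08 (GJB1), -0.999 (PTGDS), -0.93 (RAB15), -0.92 (ALPP), -0.78 (LOXL4), 0.39 (DACT1) and 1.49 (GRAMD1B). In other named genes the differences were -2.12 (TP53INP2), -2.07 (ACOT1), -1.63 (LOC102723728), -1.22 (RARRES1), -1.02 (SLC2A5), -1.02 (RXFP4), 1.29 (DST), 1.31 (BDP1), 1.31 (NPIPA1) and 1.42 (PHIP). Positive values mean a more positive change in experiment 3, and HIST2H2AA3 and HIST2H2AA4, like HIST2H4A and HIST2H4B, are identical values counted as separate genes.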

How the results depend on the processing

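No called value of a named gene changed sign under any alternative run for it, though values that missed the threshold did. Positive list medians turned negative in experiment 3 after scaling for the KLF5 direct targets (-0.14), integrated stress response (-0.15), unfolded protein response (-0.15), core snoRNP (-0.06), proteasome (-0.09), glycolysis and hypoxia (-0.14), BCL2 family (-0.05) and mucin (-0.06) genes, and in experiment 2 for the R2TP partners (-0.0082), heat shock proteins (-0.02), MAPK feedback genes (-0.02) and fibroblast markers (-0.0046), and the basal-like median turned to 0.04 without sgRUVBL1 replicate 4. Leaving out each library gave 5286 to 6687 calls in experiment 3, 5802 to 6271 in experiment 2, 2055 to 4216 for the difference between the experiments, 3441 to 4007 for calls in both, 6287 to 7410 against sgKLF5 and 5345 to 6462 against sgCDK1 and sgRpa3. The lowest count for the difference was without sgRUVBL1 replicate 1 of experiment 2, and the highest was without sgRUVBL1 replicate 4 of experiment 3. Against sgRUVBL2 the 454 calls became 2 with only these groups in the fit, whose spread was then estimated from 8 libraries, and 98 to 567 with a library left out, where the cause was not tested. The difference fitted over all 32 libraries gave 2190 calls. Median-of-ratios scaling moved the median of all genes from 0.16 to -0.01 in experiment 3, from 0.12 to -0.04 in the difference, from 0.16 to -0.0005 against sgKLF5 and from 0.09 to -0.02 against sgCDK1 and sgRpa3, and with it the split of rises and falls given in the report. Among the named genes, 16 lost and 9 gained a call in experiment 3 under at least 1 alternative, 9 and 4 in experiment 2, 22 and 33 in the difference, and 8 of the 10 named for the contrast with sgRUVBL2 lost theirs. The 10 named for the contrast with sgCDK1 and sgRpa3 kept theirs under every alternative run. With the replicate number as a block there were 6267 calls in experiment 3, 6294 in experiment 2, 3343 for the difference, 3796 in both, 376 against sgRUVBL2, 7097 against sgKLF5 and 6090 against sgCDK1 and sgRpa3. The numbers were not taken as pairs, since libraries of one number deviated together at r = -0.01 to 0.34 in experiment 3 (2 of 4 over 0.1, 3 of 4 closest to their own number) and at -0.14 to 0.05 in experiment 2 (0 over 0.1, 0 closest). Read depth could not be taken from TPM, so the precision that depth sets for low genes is unknown.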

Other observations

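Other gene groups were measured in the same fits. Of 9 heat shock protein genes tested, 7 rose and 2 fell in experiment 3 and 4 rose and 2 fell in experiment 2, but after scaling experiment 3 had 1 rise and 2 falls and experiment 2 had 3 and 3. The CCT chaperonin and prefoldin subunits, which fold actin and tubulin, gave 7 rises and 1 fall of 12 in experiment 3 and 3 and 4 in experiment 2, and after scaling 1 and 3 and 2 and 4. Proteasome subunit genes rose in 10 and fell in 5 of 31 cases in experiment 3 and rose in 3 and fell in 14 in experiment 2, while after scaling falls outnumbered rises in both, by 8 to 1 and 12 to 1. For these 3 groups the sign of the balance in experiment 3 thus depended on the scaling.

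Feedback genes of the BMP, TGF-beta and Wnt pathways fell more often than they rose under both scalings, with 7 falls and 5 rises of 19 in experiment 3 (9 and 5 after scaling) and 10 falls and 3 rises of 18 in experiment 2 (10 and 3). Genes of the NRF2 antioxidant response rose in 11 and fell in 7 of 25 cases in experiment 3 and rose in 12 and fell in 7 in experiment 2, or 6 and 7 and 10 and 6 after scaling. The BCL2 family of cell death regulators had 4 rises and 2 falls of 13 in experiment 3 and 7 rises and 2 falls of 12 in experiment 2, or 2 and 4 and 5 and 2 after scaling. Glycolysis and hypoxia genes showed 11 rises and 8 falls of 33 in experiment 3 and 13 and 7 in experiment 2, or 7 and 13 and 13 and 10 after scaling. Genes of the unfolded protein response gave 6 and 3 of 17 in experiment 3 and 5 and 6 in experiment 2, or 5 and 8 and 4 and 8 after scaling. MAPK feedback genes gave 8 and 6 of 17 and 6 and 6 of 16, or 5 and 6 and 6 and 6 after scaling. Of the small groups tested, tumor cell cytokines had 4 rises and no fall of 13 in experiment 3 and 3 rises and 2 falls of 12 in experiment 2, clade B serpins 1 and 2 of 5 and 2 and 3 of 5, and mucins 2 and 2 of 6 and 2 and 1 of 5. All genes tested gave calls at 51.9% in experiment 3 and 55.8% in experiment 2, and no test of these groups against other genes was run.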
